A study of Mus musculus with 4 samples.

Results

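The genes described here are 8 regulators of the multiciliated cell, the airway cell whose surface carries a field of beating cilia: Foxj1, Mcidas, Ccno, Rfx2, Rfx3, Myb, Trp73 and Foxn4. They were chosen by name for their role, their Ensembl identifiers were matched to GRCm38 symbols, and all 8 were found among the 47729 genes listed per library. RNA was sequenced from lungs of BL/6 mice of the control genotype, labelled Control (Rosa), with 2 libraries from Sugen-Hypoxic mice and 2 from Normoxic mice. Sugen is an inhibitor of VEGF receptors, and giving it together with hypoxia is a way to model pulmonary hypertension in rodents. The Sugen-Hypoxic replicates were pools of 2 males each, while Normoxic replicate 1 was a pool of 3 females and Normoxic replicate 2 of 1 female and 2 males. Treatment therefore cannot be told apart from the sex of the pools, and Sugen cannot be told apart from hypoxia. The sample titles of both groups also carry the name MSX1. What that name and the Rosa label stand for, the age of the mice, the oxygen level, the Sugen dose and the length of exposure are not stated in the sources read.

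A multiciliated cell arises when a progenitor leaves the cell cycle, makes a large number of centrioles, docks them at its surface and grows a motile cilium from each. Falling Notch activity permits the geminin-family proteins encoded by Gmnc and Mcidas to act with E2F and DP factors, and these switch on genes of centriole amplification such as Ccno, along with Myb, Trp73 and Foxj1. Foxj1 and the RFX factors then drive the genes of the motile axoneme and remain active in the mature cell, whereas Mcidas and its partners act mainly while a cell is differentiating.

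Reads assigned to genes numbered 57319562 and 65343196 in the Sugen-Hypoxic libraries and 67135829 and 58224122 in the Normoxic ones. Values are a gene's reads per 1e6 reads assigned to genes (CPM), and the test was edgeR's quasi-likelihood test over 18783 genes with Benjamini-Hochberg adjustment. The source label gives lung and the extraction text names kidneys. Sftpc, a surfactant gene of alveolar type 2 cells, was at 12000 and 11240 CPM in Sugen-Hypoxic libraries, against 11770 and 11590 CPM in Normoxic ones, and the 10 kidney markers summed to 9.02 and 11.6 CPM against 11.9 and 11.9 CPM, nearly all of it Cdh16, a cadherin. All 10 multiciliated cell markers were detected in both groups; Ccdc153, an axonemal protein among them, was at 25.3 and 28.6 CPM in Sugen-Hypoxic lungs and 47.4 and 47 CPM in Normoxic lungs.

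Of the 8 regulators, 4 fell in Sugen-Hypoxic lungs (Myb, Trp73, Foxj1 and Rfx3), 0 rose and 4 did not pass the threshold of 0.05. Of all genes tested, 6.01% were called lower, 5.51% higher and 11.5% in either direction. Without Normoxic replicate 1, without Normoxic replicate 2, or with the male fraction of the pools in the fit, 0 regulators passed. The log2 fold changes of those that fell ran from -0.82 to -0.42. Mcidas and Foxn4 had at most 50 reads in any library. Ccno lay on the other side of zero, at a log2 fold change of 0.82. Values in CPM did not overlap between groups for 5 regulators on the lower side and 1 on the higher side, but this is common here, since 40% of all tested genes were apart on the lower side and 21.3% on the higher side, 61.3% in all.

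**Figure D1:**
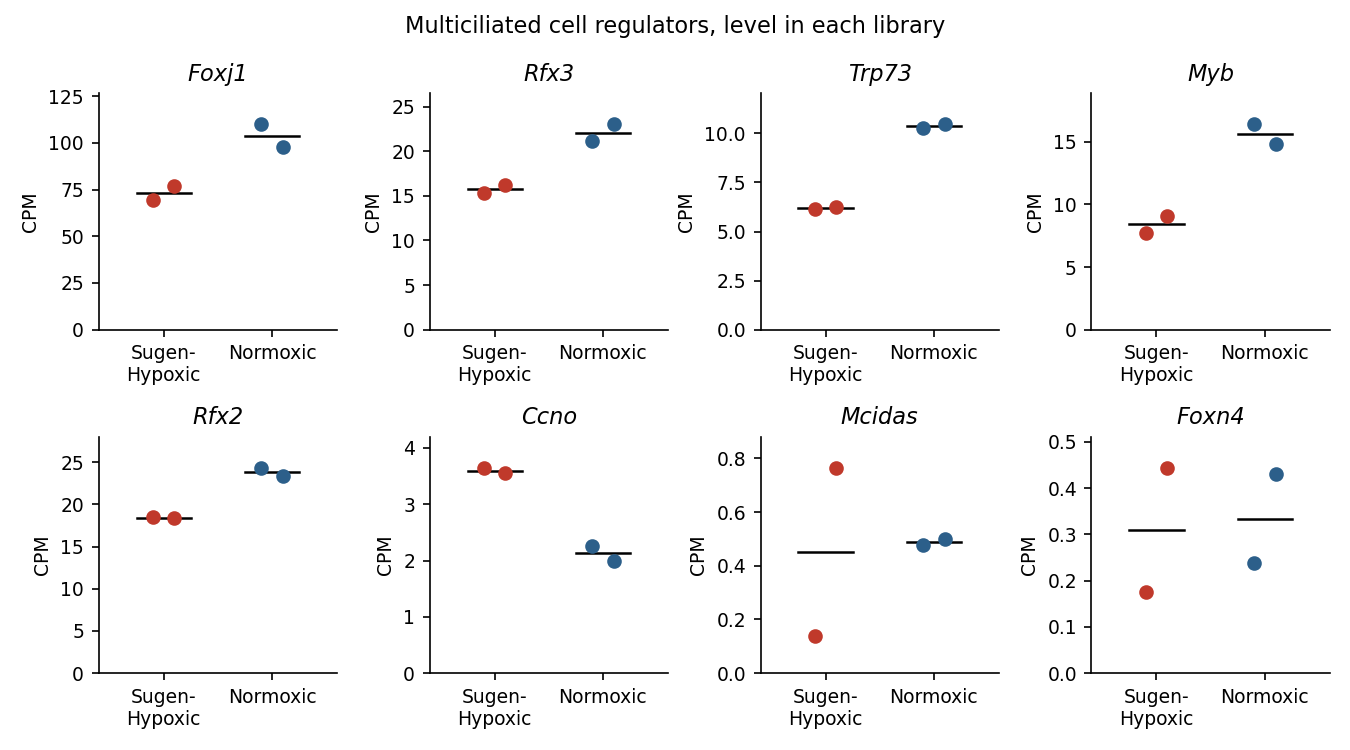
Level of each regulator in CPM (linear axis from 0, scaled separately for each gene) in the 2 Sugen-Hypoxic (left) and 2 Normoxic (right) libraries; points are libraries and horizontal lines group means. Foxj1, Rfx3, Trp73, Myb and Rfx2 lie lower in both Sugen-Hypoxic libraries, Ccno lies higher in both, and the groups overlap for Mcidas and Foxn4.

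Foxj1 (ENSMUSG00000034227, GRCm38 chromosome 11, 116330704 to 116335399, minus strand) encodes the forkhead factor that is required for motile cilia. It stood at 69.2 and 77.2 CPM in the Sugen-Hypoxic libraries, against 109.9 and 97.6 CPM in the Normoxic libraries. Both Sugen-Hypoxic values were below both Normoxic ones, and the all-female Normoxic pool was the highest. The log2 fold change was -0.44 ± 0.09 (SE), a 1.35-fold fall, with an edgeR adjusted p = 0.0329 (n = 2 pools a group). Foxj1 was by far the most abundant regulator per length, at 26.4 and 29.4 CPM per kilobase of merged exons (RPKM) in Sugen-Hypoxic lungs and 41.9 and 37.2 RPKM in Normoxic lungs. Its relatives Foxj2 and Foxj3, which are expressed in many cell types, averaged 69.8 ± 1.08 and 60.4 ± 1.16 CPM in Sugen-Hypoxic lungs against 73.4 ± 2.79 and 62.6 ± 0.0702 CPM in Normoxic lungs (SD, n = 2 a group), with log2 fold changes of 0.00 ± 0.06 and 0.02 ± 0.05 that did not pass.

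Rfx3 and Rfx2 encode winged-helix factors that bind the X-box of ciliary promoters. Rfx3 (ENSMUSG00000040929, chromosome 19, 27761721 to 28011166, minus strand) was at 15.3 and 16.2 CPM in Sugen-Hypoxic lungs and at 21.1 and 23 CPM in Normoxic lungs. It fell by 0.42 ± 0.08 on the log2 scale (edgeR adjusted p = 0.0344), and its higher Normoxic value came from the mixed-sex pool. Rfx2 (ENSMUSG00000024206, chromosome 17, 56775897 to 56831013, minus strand) was at 18.5 and 18.4 CPM in Sugen-Hypoxic lungs, against 24.4 and 23.4 CPM in Normoxic lungs. Its groups did not overlap either, yet its log2 fold change of -0.30 ± 0.08 had an edgeR adjusted p = 0.061 and did not pass. It passed with upper-quartile factors (adjusted p = 0.0416) or library size alone (adjusted p = 0.0332) in place of TMM factors. It passed in only these 2 of the 10 other settings that kept all libraries. These scalings shifted the median log2 fold change of all genes by -0.05 and -0.07. Of the 15 relatives of the regulators in the RFX, Foxj, Foxn, Myb and p53 families, 12 were tested, 0 passed in either direction and their median log2 fold change was 0.00, as for all genes tested.

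Trp73 (ENSMUSG00000029026, chromosome 4, 154056253 to 154140208, minus strand) encodes p73, a relative of p53 whose full-length form acts upstream of Foxj1 in multiciliated cells. It was at 6.14 and 6.26 CPM in Sugen-Hypoxic lungs and 10.3 and 10.5 CPM in Normoxic lungs. The gap was wide beside the spread within either group, and the all-female and mixed Normoxic pools were nearly equal. Its log2 fold change was -0.67 ± 0.11, a 1.6-fold fall (edgeR adjusted p = 0.021). Counts per gene do not separate the full-length from the shorter p73 transcripts, which start at different promoters.

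Myb (ENSMUSG00000019982, chromosome 10, 21124935 to 21160984, minus strand) encodes a factor that promotes centriole amplification in airway progenitors and that is better known from blood progenitors and developing lymphocytes. It was at 7.75 and 9.09 CPM in Sugen-Hypoxic lungs, against 16.4 and 14.8 CPM in Normoxic lungs. This was the largest fall among the 8, -0.82 ± 0.12 on the log2 scale or a 1.77-fold fall (edgeR adjusted p = 0.0164). Lymphocyte markers moved with it: 8 of 8 B cell markers fell, with a summed level of 98.2 to 121 CPM in Sugen-Hypoxic lungs and 283 to 301 CPM in Normoxic lungs, and 0 of them were at 0 CPM. Of the 8 T cell markers 7 fell, at 29.9 to 33.3 CPM against 63.4 to 68.5 CPM in sum. Cd79a, a part of the B cell receptor, was at 17.9 and 22.3 CPM in Sugen-Hypoxic lungs and at 59.6 and 54.3 CPM in Normoxic lungs. Of the 7 markers of thymocytes and lymphoid progenitors, 2 were tested and 0 passed, at log2 fold changes of -0.26 and 0.56. The 7 summed to 9.19 to 10.9 CPM in Sugen-Hypoxic lungs and 11.8 to 13.2 CPM in Normoxic lungs, and Ptcra, the pre-T cell receptor chain, was at 0 in every library. Markers of myeloid and erythroid progenitors went the other way in sum, at 583.5 to 625.8 CPM in Sugen-Hypoxic lungs and 371.8 to 383.5 CPM in Normoxic lungs. Of these 8 markers 5 were tested, with 2 higher and 0 lower. The 2 were Kit and Cd34, which lung endothelium also expresses. The part of lymphocytes in the fall of Myb was not tested. Its relatives Mybl1 and Mybl2 did not pass.

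Ccno (ENSMUSG00000042417, chromosome 13, 112987802 to 112990777, plus strand) encodes cyclin O, which is needed for centriole amplification and whose loss in humans leaves airway cells with few cilia. It stood at 3.65 and 3.55 CPM in Sugen-Hypoxic lungs and at 2.26 and 1.99 CPM in Normoxic lungs, from 116 to 232 reads a library. The Sugen-Hypoxic libraries were the higher pair, without overlap. The log2 fold change of 0.82 ± 0.20 had an edgeR adjusted p = 0.055 and so missed the threshold. With DESeq2 it passed at an adjusted p = 0.0265, with limma-voom at 0.0484, and without a filter on low counts at 0.0214. It passed in only these 3 of the 10 other settings that kept all libraries. DESeq2 and the fit without a filter also called more genes over the whole table, 3040 and 3657 against 2163.

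Mcidas (ENSMUSG00000074651, chromosome 13, 112993845 to 113000394, plus strand) encodes multicilin, which binds E2F and DP factors to start centriole amplification. It had 8 and 50 reads in the Sugen-Hypoxic libraries and 32 and 29 reads in the Normoxic ones, or 0.14 and 0.765 CPM against 0.477 and 0.498 CPM. The Sugen-Hypoxic libraries lay on either side of the Normoxic pair. Their exact 95% Poisson intervals, which cover counting error only, were 0.0603 to 0.275 CPM in replicate 1 and 0.568 to 1.01 CPM in replicate 2, so these pools differed from each other beyond counting error. The log2 fold change of -0.03 ± 0.74 (edgeR adjusted p = 0.985) did not pass, and it was 0.71 without Sugen-Hypoxic replicate 1 and -1.70 without Sugen-Hypoxic replicate 2.

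Foxn4 (ENSMUSG00000042002, chromosome 5, 114254164 to 114273807, minus strand) encodes a forkhead factor known from multiciliated cell formation in frogs. It had 10 and 29 reads in the Sugen-Hypoxic libraries, against 16 and 25 reads in the Normoxic libraries. That is 0.174 and 0.444 CPM against 0.238 and 0.429 CPM, and the groups overlapped. Its log2 fold change was -0.02 ± 0.61 (edgeR adjusted p = 0.985).

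**Figure D2:**
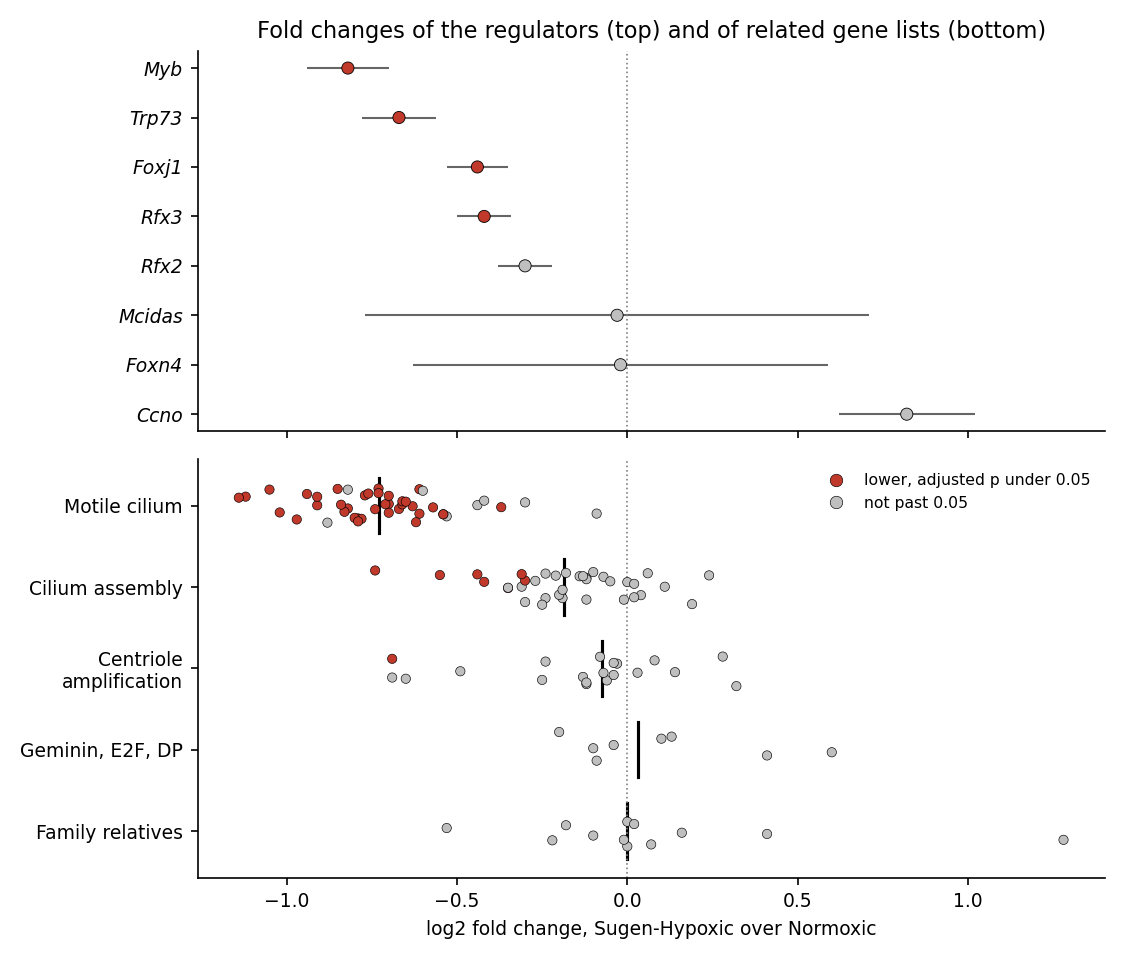
Log2 fold changes, Sugen-Hypoxic over Normoxic, of the 8 regulators with their standard errors (top) and of the tested genes of 5 related lists (bottom, vertical bars are medians, vertical jitter only for legibility). Red points are lower at an adjusted p under 0.05 and grey points did not pass; the motile cilium genes have a median of -0.73 and lie below zero in all 45 cases, while the medians of the other 4 lists run from -0.18 to 0.03.

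Compared per length, Foxj1, Rfx2 and Rfx3 led and Mcidas and Foxn4 came last in both groups. In Normoxic lungs Foxj1 at 39.5 RPKM was followed by Rfx2 at 3.26, Rfx3 at 2, Trp73 at 1.88, Myb at 1.75, Ccno at 0.833, Mcidas at 0.205 and Foxn4 at 0.099 RPKM. In Sugen-Hypoxic lungs Ccno, at 1.41 RPKM, stood above Trp73 at 1.12 and Myb at 0.942 RPKM, and overlapped Rfx3 at 1.43 RPKM; Mcidas and Foxn4 overlapped there too. The library values of Rfx3, Trp73 and Myb lay close together in Normoxic lungs, without overlap between neighbours. With the longest transcript in place of merged exons as length, 5 of the 8 kept their rank and Myb moved above Rfx3 and Trp73.

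Promoter sequences were set beside the values because 4 of the regulators fell together and the RFX and forkhead proteins among them are known to bind DNA at ciliary genes. RefSeq entries on GRCm38.p6, from 250 bases before to 50 after a start, were available for 7 of the 8 regulators (8 entries, 2 of them for Trp73), and Foxj1 was not among them. The letters GTTGCC, a part of the RFX X-box, were searched on both strands, and 12.5% of all 32851 entries hold them. They occur in 5 of the 8 regulator entries, namely in 1 each for Mcidas, Ccno, Rfx2, Rfx3 and Trp73. The 30-base windows below run 5′ to 3′ on the strand of the gene, with the match in capitals; in Trp73 the match reads GGCAAC, the same letters on the other strand.
Mcidas (chr13:112993661-112993690, plus strand, match begins 195 bases upstream): gggggaagccagGTTGCCaggttggttaac
Ccno (chr13:112987571-112987600, plus strand, 219 bases upstream): acccgggctgcgGTTGCCacggtgacgaca
Rfx2 (chr17:56831107-56831136, minus strand, 116 bases upstream): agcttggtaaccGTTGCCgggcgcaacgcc
Rfx3 (chr19:28011118-28011147, minus strand, 32 bases downstream): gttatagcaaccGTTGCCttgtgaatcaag
Trp73 (chr4:154139856-154139885, minus strand, 3 bases downstream): tccaggcgaggaGGCAACgctgcagcccag
The match was thus found at Rfx3 and Trp73, which fell, at Rfx2, which did not pass, at Ccno, which lay higher, and at Mcidas, which could not be called. The longer form, GTTGCC followed after 2 free bases by GG, found in 2.25% of all entries and overlapping the shorter one, occurred at Ccno alone among the 8 regulator entries. The forkhead letters TGTTTAC, in 3.65% of all entries, occurred at Myb alone, 34 bases downstream of the start, and no match at the others says only that these letters are not in the window.
Myb (chr10:21160935-21160964, minus strand): gtttgatggcatcTGTTTACagagttacac
The E2F letters TTCCCGC, in 4.6% of all entries, were found 2 times in the upstream entry of Trp73, and the p53-family letters CATGCCC, in 3.76%, in that of Rfx2, all searched on both strands. A match is a run of letters and does not show binding.

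The 250 bases upstream of Ccno are printed as the promoter of the only regulator whose level was higher in both Sugen-Hypoxic libraries, with the longer form in capitals.
Ccno (chr13:112987552-112987801, plus strand): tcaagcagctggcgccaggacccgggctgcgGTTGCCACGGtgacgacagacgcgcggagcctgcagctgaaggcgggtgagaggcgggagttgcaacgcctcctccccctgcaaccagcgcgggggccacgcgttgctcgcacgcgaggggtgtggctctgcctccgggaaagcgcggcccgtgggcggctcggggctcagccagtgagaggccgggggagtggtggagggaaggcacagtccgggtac

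Ccno and Mcidas are neighbours, with 3067 bases between the end of the first and the start of the second, in a stretch that also holds Cdc20b, the host gene of the miR-449 cluster. Of the 9 protein-coding genes in the stretch within 200 kb of Mcidas, itself included, 1 fell and 0 rose, where 11.5% of all genes tested were called in either direction. The one that fell was Gzma, a granule protease of killer lymphocytes, at 3.04 and 3.66 CPM in Sugen-Hypoxic lungs against 20.9 and 14.9 CPM in Normoxic lungs. Cdc20b had 10 and 25 reads in Sugen-Hypoxic lungs and 30 and 28 reads in Normoxic lungs, with a log2 fold change of -0.65 ± 0.50 that did not pass. Dhx29, an RNA helicase of translation initiation on the far side of Ccno from Mcidas, had a log2 fold change of 0.24 ± 0.06 (edgeR adjusted p = 0.0533), while Plpp1, Mtrex and Gpx8 lay between -0.10 and 0.04. Gzmk, a second granule protease, had a log2 fold change of -1.33 ± 0.40 and did not pass (edgeR adjusted p = 0.0896).

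Upstream of the regulators, no gene of the geminin, E2F and DP list passed (0 of 8 lower, 0 higher, median log2 fold change 0.03), although 2 of the 8, Tfdp1 and Rbl2, had an unadjusted edgeR p under 0.05, and DESeq2 called 1 of the list higher. Gmnc, the geminin-family gene that acts before Mcidas, had 135 and 237 reads in Sugen-Hypoxic lungs and 117 and 139 in Normoxic lungs. In CPM this was 2.36 and 3.63 against 1.74 and 2.39, with a log2 fold change of 0.60 ± 0.30 (edgeR adjusted p = 0.237). Among the abundant genes of the list, Rbl2 and Tfdp2 had log2 fold changes of -0.20 and -0.10. Tfdp2 encodes a DP factor, and Rbl2 encodes a pocket protein rather than a geminin, E2F or DP protein. Notch genes moved both ways, with 3 of 12 lower and 3 higher, against 1 lower and 0 higher without either Normoxic library. Jag2, a Notch ligand, rose by 1.14 ± 0.14 on the log2 scale, while the ligand Dll4 and the target Hey1 fell by 2.60 and 1.23 on the log2 scale. Hes1, the Notch target that holds back the multiciliated fate in airways, was at 110.4 and 79.5 CPM in Sugen-Hypoxic lungs against 99.1 and 105 CPM in Normoxic lungs and did not pass. These Notch genes are expressed in vessels as well as in airways, and whole-lung RNA does not assign them. Of 12 general epithelial factors, Gata6 fell (log2 fold change -0.32 ± 0.07, edgeR adjusted p = 0.0397), a call lost without either Normoxic library, and the lung factor Nkx2-1 and the airway factor Foxa1 did not pass at 0.00 and -0.25.

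Downstream, the genes of the motile cilium fell together, in 36 of 45 cases with 0 rises and a median log2 fold change of -0.73 against 0.00 for all genes tested. Without either Normoxic library, 0 of the 45 were called, nor were Ccdc78 and the cilium assembly genes. Hydin, a protein of the central pair of microtubules, was at 20.3 and 26.4 CPM in Sugen-Hypoxic lungs and 55.2 and 52.4 CPM in Normoxic lungs, a log2 fold change of -1.14 ± 0.12. Zmynd10, a dynein assembly factor, fell by 1.12 and Dnah9, an outer arm dynein heavy chain, by 1.05. Gas8 and Cfap45 were the most abundant members that did not pass, at -0.09 and -0.42. Genes of cilium assembly that primary cilia also use were lower in 7 of 36 cases with 0 higher and a median of -0.18, led by Dync2h1, the retrograde transport dynein, at -0.74, and by Ttc26 and Ift122 at -0.55 and -0.44. Ift172 and Kif3b did not pass. Of the 20 genes of centriole amplification 1 fell, Ccdc78, which is known from the deuterosome on which multiciliated cells build centrioles. Ccdc78 was at 7.99 and 8.95 CPM in Sugen-Hypoxic lungs against 15.2 and 13.5 CPM in Normoxic lungs, a log2 fold change of -0.69. Deup1, of the same list, had a log2 fold change of -0.69 ± 0.24 and did not pass. It was at 1.465 and 1.974 CPM in Sugen-Hypoxic lungs against 2.845 and 2.971 CPM in Normoxic lungs, from 84 to 191 reads a library. Of the 20 genes, 15 had a negative log2 fold change, with a median of -0.07 and a range of -0.69 to 0.32. Pcm1 and Cep120, general centrosome genes, were at 0.03 and -0.07.

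The 10 multiciliated cell markers summed to 119 and 136 CPM in Sugen-Hypoxic lungs and to 232 and 229 CPM in Normoxic lungs, and 9 of them fell; 9 of the 10 are also among the 45 motile cilium genes. In whole-lung RNA, fewer multiciliated cells and less RNA per cell cannot be told apart. Foxj1 amounted to 58.1 and 56.9% of that marker sum in Sugen-Hypoxic libraries, against 47.3 and 42.7% in Normoxic libraries. Rfx2 was at 15.6 and 13.6% against 10.5 and 10.2%, and Rfx3 at 12.9 and 11.9% against 9.09 and 10.1%. All of these groups are apart, with the regulator higher relative to the markers in Sugen-Hypoxic lungs. Trp73 was at 5.16 and 4.62% against 4.43 and 4.57%, and Myb at 6.51 and 6.7% against 7.06 and 6.46%, so the groups overlapped for Myb and were barely apart for Trp73. Ccno was at 3.06 and 2.62% of the marker sum in Sugen-Hypoxic libraries and 0.975 and 0.871% in Normoxic ones, a ratio of group means of 3.08. The marker sum in Sugen-Hypoxic lungs was 0.552 of that in Normoxic lungs. A gene with the same CPM in both groups would therefore also stand higher on this measure. These shares are a description, with no test, and do not show that a regulator rose.

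**Figure D3:**
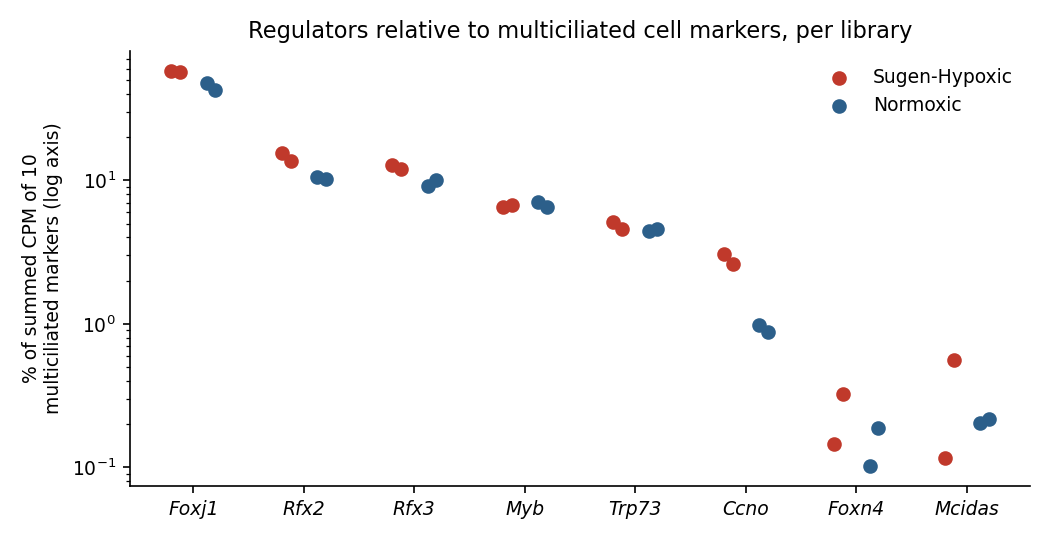
Each regulator in each library as a percentage of the summed CPM of 10 multiciliated cell markers (log axis), with Sugen-Hypoxic libraries left and Normoxic libraries right for each gene. Foxj1, Rfx2 and Rfx3 are higher relative to the markers in Sugen-Hypoxic libraries, Ccno is 3.08 times higher in group mean, and Myb overlaps between groups. The marker sum is itself lower in Sugen-Hypoxic libraries, so a gene of unchanged level would also lie higher here.

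Markers of other airway cells differed as well. Of 10 club cell markers 3 fell, and their sum was 14790 and 12340 CPM in Sugen-Hypoxic lungs against 20190 and 20030 CPM in Normoxic lungs, with Cbr2 lower by 0.84 and Scgb1a1 at -0.49 without passing. Most of the sum was Scgb1a1, at 10210 and 8457 CPM against 13870 and 13650 CPM. Of the 9 club cell markers tested, 6 had a negative log2 fold change, and the range was -0.84 to 2.11. Goblet cell markers differed mainly between the Sugen-Hypoxic pools, with sums of 18.8 and 151 CPM there against 96.4 and 78.7 CPM in Normoxic lungs, and 0 of 6 passed. Of 14 cell cycle genes edgeR called 0, DESeq2 called 2 higher, and edgeR called 11 higher without Sugen-Hypoxic replicate 1 but 3 lower and 0 higher without Sugen-Hypoxic replicate 2. Mki67, a marker of dividing cells, was at 22.9 and 63.1 CPM in Sugen-Hypoxic lungs against 23.8 and 32.1 CPM in Normoxic lungs, so that Sugen-Hypoxic replicate 2 was the highest library for it, as it was for the summed goblet markers, Mcidas and Gmnc. The part of that library in the values of Mcidas and Gmnc was not tested. Basal, neuroendocrine and mesothelial markers had sums of 2.69 to 3.38, 22.2 to 32.5 and 421 to 478 CPM in Sugen-Hypoxic lungs, against 3.35 to 3.62, 15.9 to 18.6 and 489 to 543 CPM in Normoxic lungs. Among these Uchl1 of the neuroendocrine list rose, Lrrn4 of the mesothelial list fell, and Krt17 of the basal list had 24 and 20 reads against 0 and 0. Alveolar type 2 markers had 1 of 8 lower, and myeloid and erythroid progenitor markers 2 of 8 higher, namely Kit and Cd34, which lung endothelium also expresses.

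Calls over the whole table numbered 2163 with all libraries, 25 without Normoxic replicate 1 and 113 without Normoxic replicate 2, and the regulators' calls were lost along with them. Without Normoxic replicate 1, 0 regulators passed, with edgeR adjusted p = 0.241 for Foxj1, 0.195 for Rfx3, 0.161 for Myb and 0.195 for Trp73. Without Normoxic replicate 2, 0 passed as well, at edgeR adjusted p = 0.116, 0.259, 0.108 and 0.192 for the same genes. In these fits the log2 fold changes were -0.33 and -0.53 for Foxj1, -0.46 and -0.36 for Rfx3, -0.73 and -0.90 for Myb and -0.67 and -0.67 for Trp73. Without Sugen-Hypoxic replicate 1 and replicate 2 in turn, the log2 fold changes were -0.32 and -0.28 for Rfx2 and 0.79 and 0.86 for Ccno. Motile cilium genes were called lower in 0 and 0 cases without Normoxic replicates 1 and 2. Cilium assembly genes were called lower in 0 and 0 cases, T cell markers in 0 and 0, B cell markers in 0 and 4 and club cell markers in 0 and 0, against 11 cilium assembly and 5 club cell genes without Sugen-Hypoxic replicate 1. Adding the male fraction of each pool to the fit left 1 residual degree of freedom, and 0 regulators passed, and the log2 fold changes were -0.25 for Foxj1, -0.52 for Rfx3, -0.65 for Myb, -0.68 for Trp73 and 1.03 for Ccno. The direction of Foxj1, Rfx2, Rfx3, Myb, Trp73 and Ccno was the same in every setting tried, including each scaling and each library left out.

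**Figure D4:**
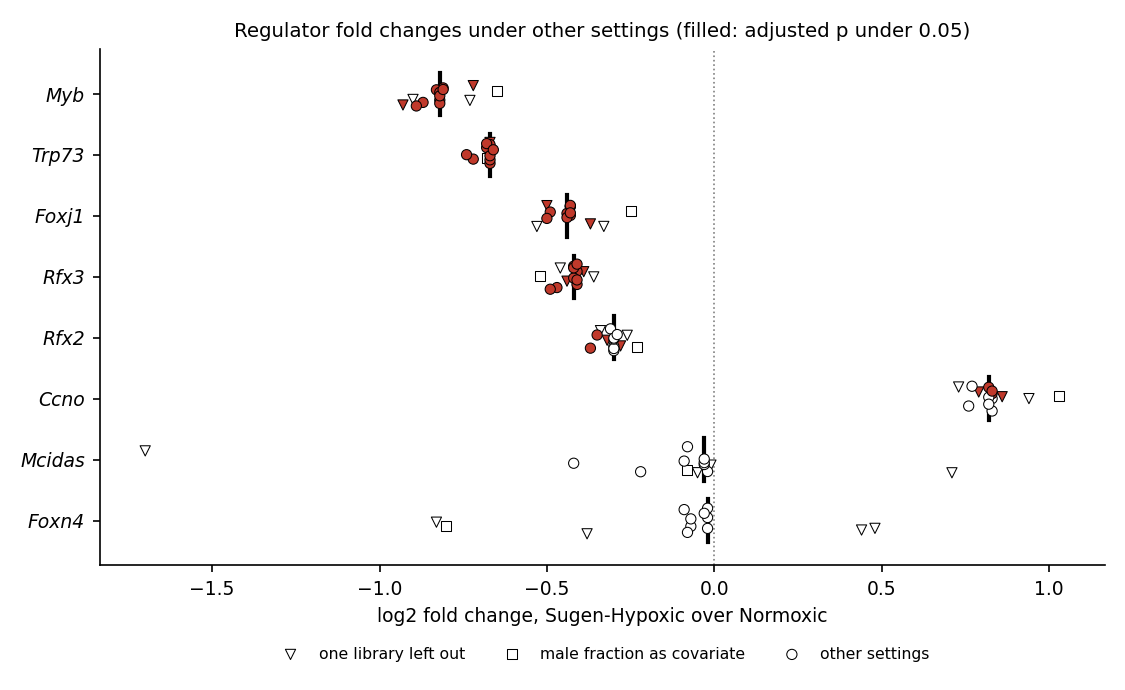
Log2 fold change of each regulator, Sugen-Hypoxic over Normoxic, with all libraries (vertical bar) and under other settings (triangles, one library left out; squares, male fraction as covariate; circles, other tools, filters, scalings and count columns; filled red where the adjusted p was under 0.05). Foxj1, Rfx2, Rfx3, Myb, Trp73 and Ccno stay on their side of zero in all settings shown, and Mcidas and Foxn4 spread across it.

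The genes whose pattern over the 4 libraries was closest to that of Foxj1, by the root mean square difference in centred log2 CPM, were Kcnn1, BC055324, Dok7, Proser3 and Xk, at 0.00676 to 0.0235. None of these 5 passed the test itself, with Kcnn1 at 1.33 and 1.48 CPM in Sugen-Hypoxic lungs against 2.1 and 1.87 CPM in Normoxic lungs. Among the 13845 genes ranked, Rfx2 was at place 396, Rfx3 at 547, Trp73 at 1302, Myb at 3140 and Ccno at 13255. The measure counts differences in the size of a change as well as in its direction. Trp73 and Myb fell further than Foxj1, at log2 fold changes of -0.67 and -0.82 against -0.44.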

How the data were processed

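The authors deposited raw read counts per gene in the layout of STAR's gene counts; STAR 2.5.1b, HTSeq and GRCm38.p4 are named in the submitters' processing notes, without the annotation release. The deposited counts of reads whose first mate lies opposite to the gene were used, being 20.9 to 24.9 times those of the other strand. Of 47729 genes, 47310 matched a GENCODE annotation of GRCm38. Summary rows stayed out of library sizes: unmapped reads were 6.45 to 7.55%, multimapping 4.5 to 4.54%, without feature 7.73 to 9.98% and ambiguous 1.1 to 1.13%. No annotated gene overlaps a regulator on the same strand.

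Genes were filtered with filterByExpr, scaled by TMM factors and tested two-sided with edgeR 4.0.16 (R 4.3.3), with group as the only term and 2 residual degrees of freedom; the script was tested on simulated data, where the share of false calls was above the nominal threshold and most of the smallest changes were missed. DESeq2 1.42.0, limma 3.58.1, other scalings, filters, count columns and leaving out each library were alternatives. Nothing in the labels says more of the pools than sex and number. The p-values set the group difference against the spread of only these 4 pools within their groups, estimated partly from all genes together. Within the Normoxic group that spread includes a difference in sex between the pools. Poisson intervals cover counting error only. The regulators, the gene lists and the tests were chosen with earlier results of these data known. Genes named are the regulators, Gmnc, protein-coding genes within 200 kb of Mcidas, the 5 most like Foxj1 and, from each marker list, among the 2 most abundant. From each pathway list with a mean of at least 1 CPM they are up to 3 with the largest called change and up to 2 of the most abundant uncalled genes. Tfdp1, Deup1, Mybl1, Mybl2, Ptcra, Krt17 and Lrrn4 were named after their values were seen.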

Additional observations from a re-analysis of the deposited data

How the results depend on the processing

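The 4 regulators called lower kept that call under all 9 other scalings, filters, count columns and tools tried, and lost it with the male fraction of the pools in the fit or with either Normoxic library left out. With the male fraction, 11 genes changed over the whole table against 2163, 0 regulators were lower, and the log2 fold change was -0.25 for Foxj1, -0.52 for Rfx3, -0.65 for Myb and -0.68 for Trp73. In that fit 1 Notch gene was lower and 0 higher, and 0 airway factors, centriole, motile cilium, cilium assembly, club, T cell and B cell genes were lower. Without a filter on low counts 3657 genes changed and 1 regulator was higher, Ccno at 0.83, with 1 geminin-list gene higher, 2 airway factors lower, 1 higher and 2 cell cycle genes higher. DESeq2 gave 1 regulator higher, Ccno at 0.83, with 1 geminin-list gene, 1 airway factor and 2 cell cycle genes higher, and limma-voom gave 1, Ccno at 0.82. Rfx2 passed at -0.35 with upper-quartile factors, which gave 3 airway factors lower, and at -0.37 with library size only, which gave 3 airway factors, 13 cilium assembly genes and 1 geminin-list gene lower. Library size only moved the median of all genes by -0.07. RLE factors and unstranded counts each gave 1 geminin-list gene higher. With the longest transcript as length, 5 regulators kept their rank. The cause of these changes was not tested.

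Leaving out 1 library gave 25 to 5101 changed genes. Regulators called lower ran from 0 to 5 and higher from 0 to 1. Log2 fold changes ran from -0.53 to -0.33 for Foxj1, -0.46 to -0.36 for Rfx3, -0.93 to -0.72 for Myb and -0.34 to -0.26 for Rfx2. Trp73 was at -0.67 in each case, and Ccno ran from 0.73 to 0.94. Mcidas ran from -1.70 to 0.71, reversed at 0.71 without Sugen-Hypoxic replicate 1. Foxn4 ran from -0.83 to 0.48, reversed at 0.44 without Normoxic replicate 2 and at 0.48 without Sugen-Hypoxic replicate 1. The lone library of an arm is then assumed to vary like the other group. Genes called lower ran from 0 to 2 in the geminin list, 1 to 5 for Notch, 0 to 4 for airway factors, 0 to 3 for centriole, 0 to 42 for motile cilium, 0 to 11 for cilium assembly, 0 to 3 for cell cycle, 0 to 6 for club, 0 to 8 for T cell and 0 to 8 for B cell genes. Genes called higher ran from 0 to 2 in the geminin list, 0 to 7 for Notch, 0 to 1 for airway factors, 0 to 2 for centriole, 0 to 1 for family relatives, 0 to 11 for cell cycle and 0 to 2 for club cell genes. Mcidas and Foxn4 have no value under a minimum mean of 1 CPM. No paired analysis was possible because the labels give no replicate numbers that tie a Sugen-Hypoxic pool to a Normoxic one.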
